A study of Mus musculus with 5 samples.

Results

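The regions described here are the β-catenin ChIP-seq peaks around 4 genes that encode secreted ligands of gastrulation, Wnt3, Wnt8a, Fgf8 and Bmp4, in mouse embryonic stem cells. A peak was a member when its summit lay in 1 of 4 windows in mm9 coordinates: chromosome 11 from 103.57 to 103.74 Mb for Wnt3, chromosome 18 from 34.65 to 34.76 Mb for Wnt8a, chromosome 19 from 45.76 to 45.87 Mb for Fgf8, and chromosome 14 from 46.94 to 47.07 Mb for Bmp4. The windows held 26 of the 44750 peaks of the 3 deposited lists, 11 from each list of treated cells and 4 from the vehicle list. Peaks of different lists that overlapped were joined, which gave 16 regions of 33485 in all.

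All libraries came from V6.5 embryonic stem cells in which Ctnnb1, the gene of β-catenin, carries a knocked-in tag with a biotin acceptor and 3 FLAG epitopes, and which make the BirA enzyme that adds the biotin. The cells grew in serum and LIF on DR4 feeder cells, and an hour on gelatin was used to enrich stem cells before the ChIP. One group received the GSK3 inhibitor CHIR99021 at 3 µM and was captured with anti-FLAG, a second received the same treatment and was captured with streptavidin, and the third received DMSO and is labelled as captured with streptavidin. The run and the file of the DMSO library are named for FLAG, so its capture rests on the label. Treatment lasted 16 hours per the labels' protocol and 24 hours per the series text. Each group is 1 library, so replicate error could not be measured, and the intervals cover counting error only. Untagged cells were not analysed here.

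The anti-FLAG library had 16100920 unique tags and the CHIR99021 streptavidin library 11934863, per the file headers. No tag total is given for DMSO, so its depth is unknown. DMSO peaks were called with a fragment shift of 30 bp, against 185 and 214 bp in the other lists, and had a median of 6 tags, against 39 and 34. Tags, scores and fold enrichments of DMSO peaks are therefore given side by side with the others and not compared in size. A window without a DMSO peak is a window without a call and gives no limit on binding.

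In the canonical Wnt pathway a secreted Wnt ligand binds Frizzled and LRP receptors, the complex that degrades β-catenin is held back, and β-catenin enters the nucleus and acts with TCF and LEF factors on target genes. CHIR99021 bypasses the ligand by inhibiting GSK3, a kinase of that degrading complex. In the mouse embryo, Bmp4 from the extraembryonic ectoderm promotes expression of Wnt3 in the posterior epiblast, and Wnt3 is required for the primitive streak to form. Wnt8a is expressed around the streak, and Fgf8 is needed for cells to move away from it.

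The 4 windows differed in how many sites both captures found. The Wnt8a window held 6 regions called with both, the Fgf8 window 2, and the Wnt3 and Bmp4 windows 0. DMSO peaks lay in the Wnt8a window (1) and the Fgf8 window (3), and none lay in the Wnt3 or Bmp4 window. Such absences were common in windows tiled over the chromosomes. At the lengths of the Wnt3 and Bmp4 windows, 63.3% and 69.7% of them held no region of both captures. No DMSO peak lay in 54.7% and 61.3% of them. Of the 11 anti-FLAG members, 8 overlapped a CHIR99021 streptavidin peak, beside 57.6% of the whole anti-FLAG list. In the other direction it was also 8 of 11, beside 57.8% of the whole streptavidin list. With 11 peaks in each list these shares, 72.7% each, do not set the windows apart. All 8 shared members lay in the Wnt8a and Fgf8 windows.

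**Figure D1:**
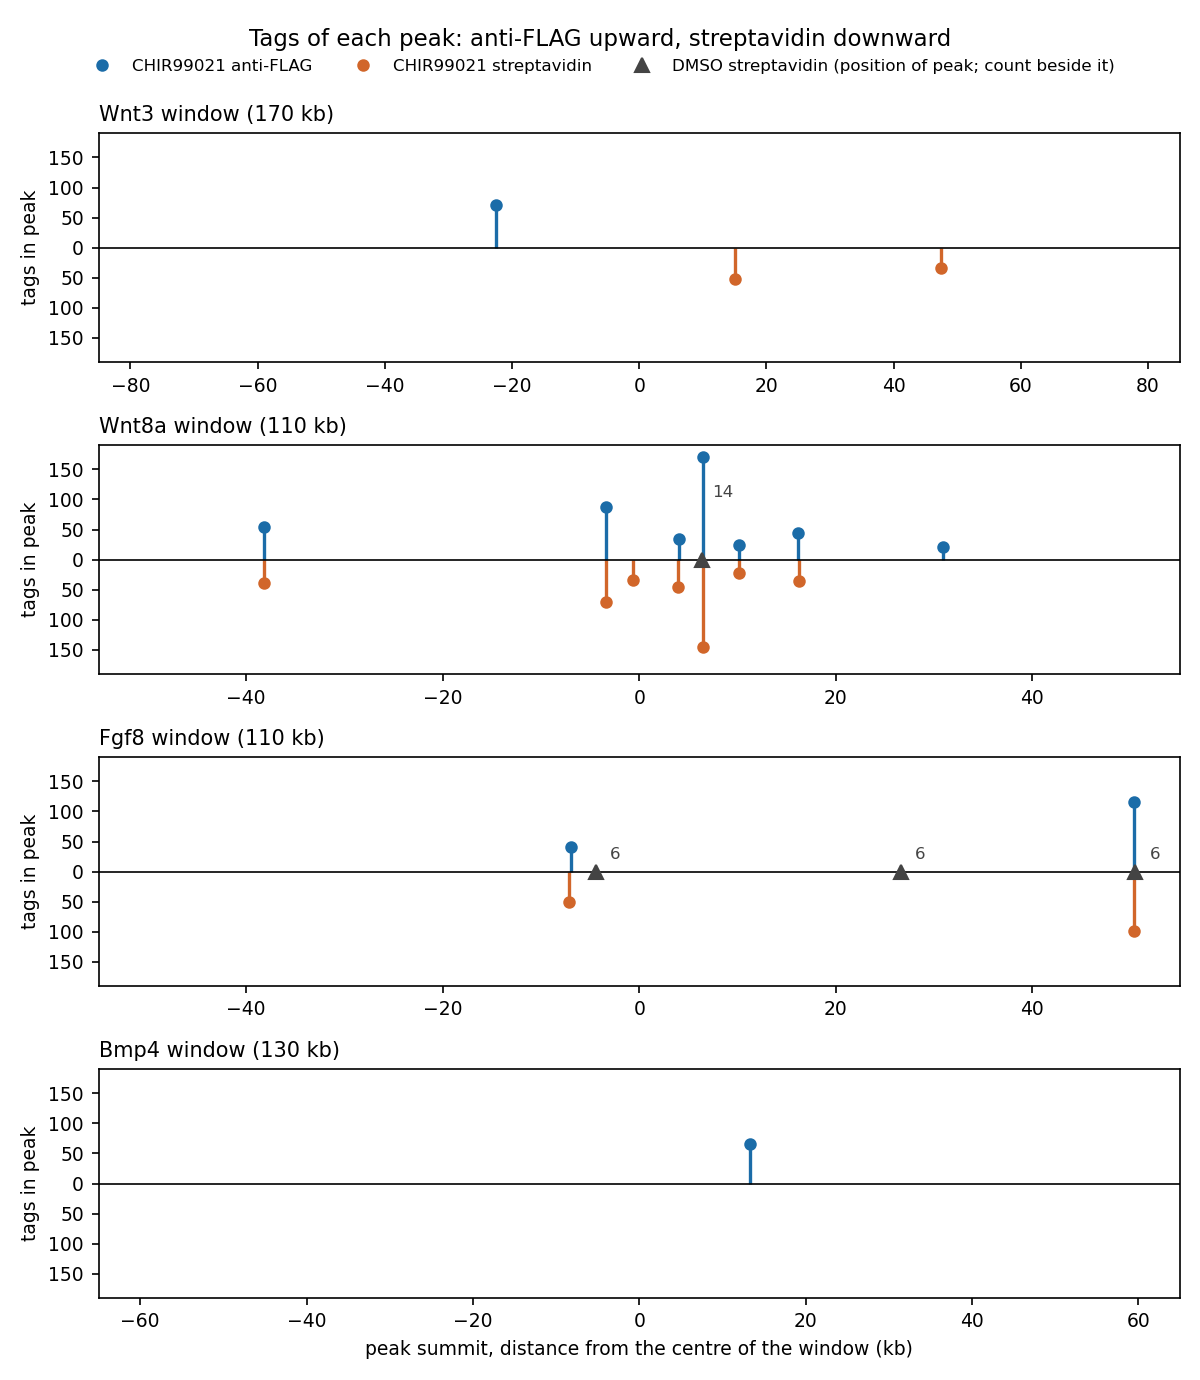
Tags in each peak (vertical axis, raw counts, anti-FLAG drawn upward and CHIR99021 streptavidin downward) against the distance of the peak's summit from the centre of its window in kb, 1 panel per window. Triangles mark DMSO peaks, with their tag counts of 14 or 6 beside them. In the Wnt8a window most upward and downward lines mirror each other, with 170 and 146 tags at the tallest, whereas in the Wnt3 window no anti-FLAG line meets a streptavidin line and the Bmp4 window holds a lone anti-FLAG line.

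Wnt8a, a canonical Wnt ligand, had the fullest window. Anti-FLAG gave 7 peaks with 436 tags over 7208 bp, and CHIR99021 streptavidin gave 7 peaks with 393 tags over 7824 bp. These peaks formed 8 regions, numbered here by position along chromosome 18, of which regions 1, 2, 4, 5, 6 and 7 were called with both captures. Regions 2 to 7 stood close together, within 21.0 kb from 34700654 to 34721612, a stretch picked out after the values were seen. That stretch carried 82.8% of the window's anti-FLAG peak tags and 90.1% of its streptavidin peak tags. Neighbouring anti-FLAG summits within it lay between 2.49 and 7.37 kb apart.

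Region 5 of Wnt8a, from 34710784 to 34712281, had the most tags and the highest p scores of all 16 in treated cells. In treated cells it had 170 tags by anti-FLAG and 146 by streptavidin, and the DMSO peak inside it had 14. The anti-FLAG peak had a fold enrichment over local background of 20.8 and a p score, which is 10 times −log10 of the p-value, of 755. That score ranked 569 in its list, in the top 3.54%. The streptavidin peak had a fold enrichment of 24.1 and a p score of 667, rank 579 and the top 3.63% of its list. Both captures thus placed the region at nearly the same rank. Their summits, at 34711505 and 34711530, lay 25 bp apart, while over all 8888 regions with 1 peak of each list the median distance was 41 bp. The leading peak held 39.0% of the anti-FLAG peak tags of the window (exact interval 34.4 to 43.7%) and 37.2% of the streptavidin ones (32.4 to 42.1%). Its count was 1.95 times that of the next peak by anti-FLAG and 2.09 times by streptavidin.

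Region 2 of Wnt8a, from 34700654 to 34702407, came next within this window by tags and by p score. It had 87 anti-FLAG tags at a fold enrichment of 7.17 and a p score of 116, and 70 streptavidin tags at 11.01 and 161. The summits at 34701647 and 34701660 were 13 bp apart. This region was in the top 35.9% of the anti-FLAG list and in the top 22.7% of the streptavidin list by p score, well below region 5 in both.

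The other Wnt8a regions of both captures were weaker. Region 1, from 34665848 to 34667268, stood 34.8 kb from region 2 by summit and had 54 and 39 tags, in the order anti-FLAG and streptavidin. Its summits, at 34666825 and 34666829, were 4 bp apart. Region 4, from 34708357 to 34709420, had 34 and 46 tags with summits 72 bp apart. It was the only 1 of the 6 with more raw tags by streptavidin, the shallower library. Region 6, from 34714615 to 34715453, had 25 and 23 tags with summits 63 bp apart. Region 7, from 34720360 to 34721612, had 45 and 35 tags with summits 72 bp apart. In these 4 regions the anti-FLAG fold enrichment ran from 5.75 to 7.67 and the streptavidin one from 5.41 to 8.42, below the list medians of 8.13 and 8.56.

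A further pair of Wnt8a regions was called with a single capture. Region 3, from 34703694 to 34704757, was a streptavidin peak of 34 tags with a p score of 51.8, close to the cutoff of 50, and a fold enrichment of 4.17. It lay 1.59 kb from the anti-FLAG peak of region 2. Region 8, from 34735452 to 34736113, was an anti-FLAG peak of 21 tags with a p score of 59.3 and a fold enrichment of 6.13, and the nearest streptavidin peak was 13.9 kb away. By p score they ranked 15030 of 15947 and 12427 of 16069 in their lists, toward the weak end of each.

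Fgf8, a fibroblast growth factor ligand, had 2 peaks in each list of treated cells, and these formed 2 regions of both captures. Region 4 of the Fgf8 window, from 45864925 to 45865876, was the stronger, with 115 tags by anti-FLAG and 98 by streptavidin in treated cells and 6 in its DMSO peak. Its fold enrichments, 23.5 by anti-FLAG and 29.1 by streptavidin, were the highest of all members in these 2 lists. The p scores were 649 and 604, ranks 718 and 675, in the top 4.47% and 4.23%. Summits at 45865373 and 45865335 were 38 bp apart. This region lay 4.63 kb inside the upper edge of the window, so it belongs to the set by a small margin of position.

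Region 1 of the Fgf8 window, from 45807391 to 45808766, had 41 anti-FLAG tags and 50 streptavidin tags. Its fold enrichments were 6.33 and 7.82 and its p scores 84.9 and 128. Here the summits at 45808052 and 45807833 lay 219 bp apart, the widest distance among the 8 regions and above the 159 bp that 90% of the whole set of regions did not exceed. The 2 Fgf8 regions stood 57.3 kb apart by their anti-FLAG summits. Region 4 held 73.7% (66.1 to 80.4%) of the anti-FLAG peak tags of the window and 66.2% (58.0 to 73.8%) of the streptavidin ones.

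Wnt3, the Wnt ligand of the early streak, had peaks in both lists of treated cells but none in common. Anti-FLAG gave 1 peak, from 103631953 to 103632987, with 71 tags, a fold enrichment of 9.03 and a p score of 96.5. Streptavidin gave 2 peaks elsewhere, from 103669567 to 103671217 with 52 tags and from 103702004 to 103702734 with 33 tags. Their fold enrichments were 6.62 and 8.34 and their p scores 66.8 and 88.6. The anti-FLAG peak lay 36.6 kb from the nearer streptavidin peak, so the captures did not meet anywhere in this window.

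Bmp4, the bone morphogenetic protein upstream of Wnt3 in the embryo, had 1 peak in all. It was an anti-FLAG peak from 47017633 to 47018760 with its summit at 47018319, 66 tags, a fold enrichment of 6.62 and a p score of 93.9. The nearest streptavidin peak was 174 kb away and the nearest DMSO peak 110 kb away. The streptavidin and DMSO lists had no peak in the Bmp4 window. Of tiled windows of the same length, 55.1% held no streptavidin peak and 61.3% no DMSO peak.

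The Wnt3 and Bmp4 anti-FLAG peaks had more tags than most peaks of that capture without a partner. Of the 6814 anti-FLAG peaks that overlapped no streptavidin peak, 4.33% had 71 or more tags and 5.55% had 66 or more. At the unique depth of the streptavidin library the same levels would be 52.6 and 48.9 tags, more than 72.4% and 68.9% of the peaks called there. By tags the Wnt3 and Bmp4 peaks were in the top 21.8% and 24.4% of the anti-FLAG list. By fold enrichment over local background they were in the top 39.2% and 70.9%. When the anti-FLAG list was cut by p score into 10 equal classes, with class 1 the highest, the pair fell in class 5, in which 62.4% (59.9 to 64.7%) of peaks had a streptavidin partner. The Wnt3 streptavidin peaks, in turn, would be 70.2 and 44.5 tags at the anti-FLAG depth, more than 77.7% and 56.8% of anti-FLAG peaks. By p score they fell in classes 7 and 5 of the streptavidin list, where 35.9% (33.5 to 38.3%) and 59.9% (57.5 to 62.4%) of peaks had an anti-FLAG partner. A call also depends on local background, so tag counts scaled to the other depth do not tell whether a site would be called. The lists give no tags outside called peaks, so the level of the other capture at these places was not measured. Why the other capture had no call there was not tested.

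The level of the 8 regions of both captures was set on a common scale, tags per 1000000 unique tags, each counted over the interval that its own capture called. Region 5 of Wnt8a had 10.6 (exact Poisson interval 9.03 to 12.3) by anti-FLAG and 12.2 (10.3 to 14.4) by streptavidin. Region 4 of Fgf8 had 7.14 (5.90 to 8.57) and 8.21 (6.67 to 10.0), and region 2 of Wnt8a had 5.40 (4.33 to 6.67) and 5.87 (4.57 to 7.41). The order of these 3 was the same in both captures, and in each capture the intervals of region 4 of Fgf8 and region 2 of Wnt8a overlapped. The remaining 5 lay between 1.55 and 3.35 by anti-FLAG and between 1.93 and 4.19 by streptavidin.

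**Figure D2:**
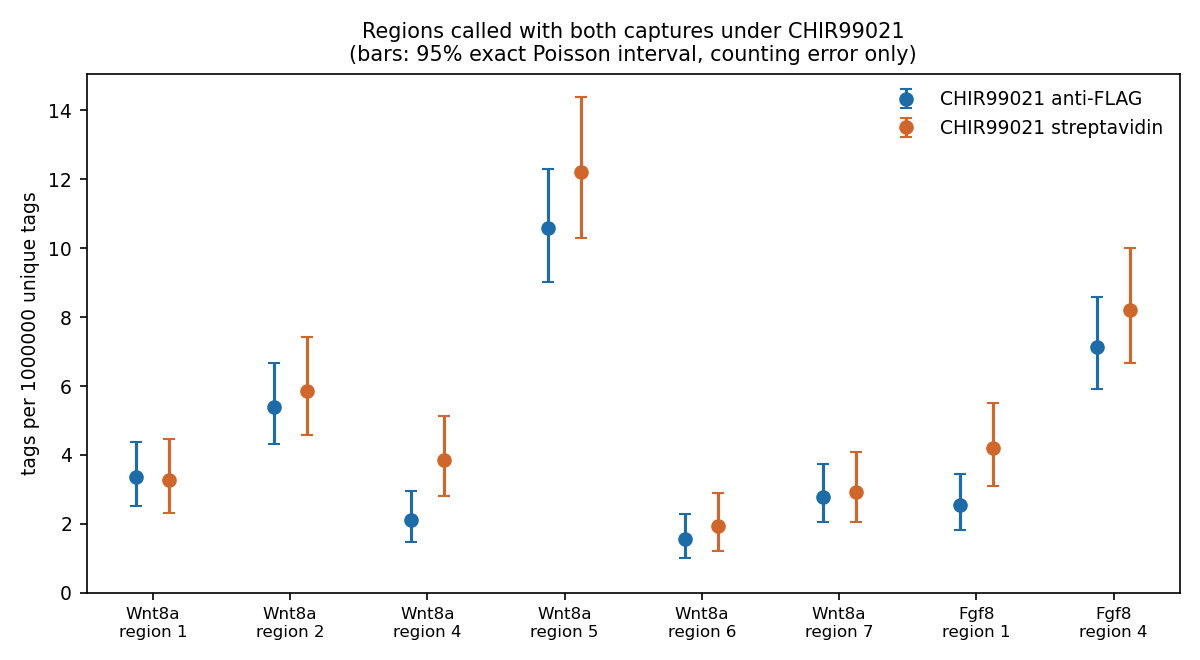
Tags per 1000000 unique tags (vertical axis) in the 8 regions called with both captures, with blue points for CHIR99021 anti-FLAG, orange points for CHIR99021 streptavidin and bars for the 95% exact Poisson interval, which covers counting error only. Region 5 of Wnt8a is the highest in both captures with 10.6 and 12.2, and the points differ most in region 4 of Wnt8a and region 1 of Fgf8. The streptavidin peaks are wider there (1064 against 784 bp and 1376 against 1000 bp), and also in other regions, such as region 6 of Wnt8a (839 against 437 bp). Streptavidin over anti-FLAG is 1.15 or more wherever the streptavidin peak is the wider, and 1.09 or less elsewhere.

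The ratio of streptavidin to anti-FLAG on that scale was 1.16 (exact binomial interval 0.922 to 1.45) in region 5 of Wnt8a and 1.15 (0.869 to 1.52) in region 4 of Fgf8. The median over all 9113 regions of both captures was 1.14, so these 2 sites sat at the middle of the series, at percentiles 52.7 and 51.7. Region 4 of Wnt8a had the highest ratio, 1.83 (1.15 to 2.93), at percentile 94.4, and region 1 of Fgf8 had 1.65 (1.07 to 2.55), at percentile 90.1. In both of these the streptavidin peak was the wider, 1064 against 784 bp and 1376 against 1000 bp. It was also the wider in regions 5 and 6 of Wnt8a and region 4 of Fgf8, and the ratio of region 6 was 1.24 (0.673 to 2.28). Wherever the streptavidin peak was the wider the ratio was 1.15 or more, and wherever it was the narrower 1.09 or less. Whether peak width accounts for the ratios was not tested. A second scale, per kb of each capture's own peak, was chosen after the values were seen. On it the ratios of region 4 of Wnt8a and region 1 of Fgf8 were 1.34 and 1.20. Region 7 of Wnt8a then had the highest ratio, 1.40, and region 6 the lowest, 0.646, from peaks of 437 bp by anti-FLAG and 839 bp by streptavidin. No interval and no series median were computed on this scale, so this order is not shown to exceed counting error. Without regard to width the lowest was 0.974 (0.628 to 1.50) in region 1 of Wnt8a. Without regard to width the interval included 1 in 6 of the 8 regions and included the series median in 7 of 8. With 1 library per capture, the spread between preparations is not known for any of them.

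DMSO peaks lay in the 2 of the 8 regions with the most tags and the highest p scores. They fell in region 5 of Wnt8a and region 4 of Fgf8, 2 of 8, beside 12.9% of all regions of both captures. All regions of both captures were also cut by anti-FLAG score into 10 equal classes. In class 1, where both of these lie, 52.9% (49.6 to 56.1%) held a DMSO peak. It was 6.70% (5.16 to 8.52%) in class 6, which holds region 2 of Wnt8a, and 5.93% (4.48 to 7.66%) in class 7, which holds region 6 of Wnt8a. Class 8, which holds region 1 of Fgf8, had 5.60% (4.20 to 7.30%). Class 9, which holds regions 1, 4 and 7 of Wnt8a, had 3.62% (2.51 to 5.05%). The 6 regions of both captures without a DMSO peak were the 6 with the lower scores in both lists of treated cells.

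The DMSO peak in region 5 of Wnt8a ran from 34711297 to 34711435 and had 14 tags, a fold enrichment of 11.9 and a p score of 75.4. By tag count it was in the top 2.32% of the DMSO list, by p score in the top 22.1%, but by fold enrichment it ranked 12279 of 12734. Its summit at 34711361 lay 144 bp from the anti-FLAG summit and 169 bp from the streptavidin summit. The DMSO peak in region 4 of Fgf8, from 45865468 to 45865544, had 6 tags, the smallest count in that list, with its summit 118 and 156 bp from those of the treated cells.

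The other 2 DMSO peaks of the Fgf8 window, at 45810500 to 45810581 and 45841564 to 45841610, had 6 tags each and overlapped no peak of treated cells. The first lay 1.73 kb from region 1 of Fgf8, and the second lay 23.3 kb from the nearest peak of either treated list. In all, 2 of the 4 DMSO members overlapped a peak of treated cells, beside 15.0% of the whole DMSO list. Peaks of exactly 6 tags made up 71.3% of that list, so the Fgf8 calls are of its commonest and smallest kind.

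Within their own lists most members were ordinary peaks. The p scores of the 11 anti-FLAG members ran from 59.3 to 755 with a median of 93.9, beside a list median of 84.9. Those of the 11 streptavidin members ran from 51.8 to 667 with a median of 91.2, beside 80.8. In each of these lists 2 members, those of region 5 of Wnt8a and region 4 of Fgf8, were in the top 10%, and this held by p score, by fold enrichment and by tag count. Members above the list median numbered 8 of 11 by tags but 3 of 11 by fold enrichment in both lists. The authors' false discovery rate was at most 1% for 7 of 11 anti-FLAG members, beside 64.8% of that list, for 7 of 11 streptavidin members, beside 55.4%, and for 0 of 4 DMSO members, beside 0.110%.

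**Figure D3:**
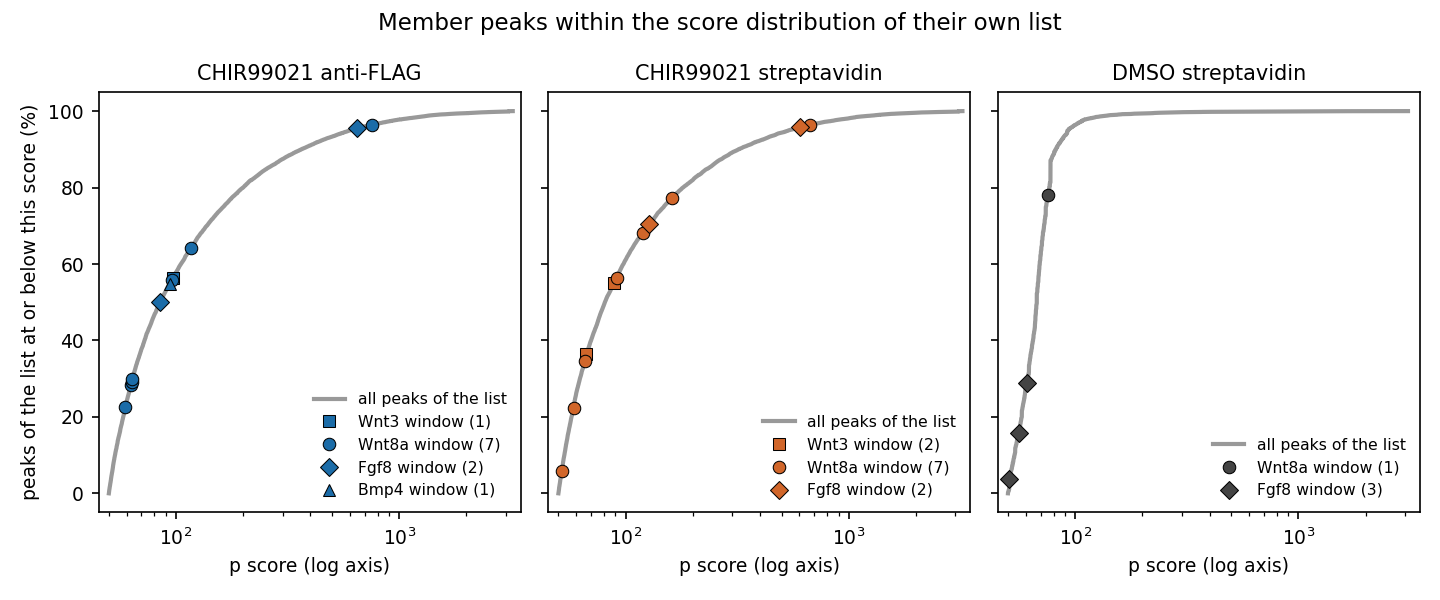
Percent of a list's peaks at or below a p score (vertical axis) against the p score (horizontal, log axis), 1 panel per list, with a grey line for all peaks and symbols for the members of each window. In both panels of treated cells 1 circle (Wnt8a) and 1 diamond (Fgf8) stand at 604 to 755 while the others lie at 161 or below, and the 4 DMSO members lie between 50.6 and 75.4.

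The number of peaks was set beside windows of the same length tiled over chromosomes 1 to 19 and X. Of 23964 windows of 110 kb, 0.188% held 7 or more anti-FLAG peaks and 0.159% held 7 or more streptavidin peaks, the numbers of the Wnt8a window. Only 24 of them (0.100%) held 6 or more regions of both captures. The Wnt8a window is therefore among the fullest of its length in both lists at the authors' cutoff. The comparison is with all tiled windows, not matched for gene content, of which 59.6% held no peak in each list. No share was computed at stricter limits, and the window was chosen with earlier results of these data known. The 2 regions of the Fgf8 window were reached or passed in 7.82% of windows, and its 3 DMSO peaks in 4.19%. A peak count as high as in the Wnt3 window was common: among windows of 170 kb, 52.2% held at least 1 anti-FLAG peak and 26.0% at least 2 streptavidin peaks. At least 1 anti-FLAG peak, as in the Bmp4 window, was held by 44.7% of windows of 130 kb. No region of both captures was held by 69.7% of all windows of 130 kb and by 63.3% of all windows of 170 kb.

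**Figure D4:**
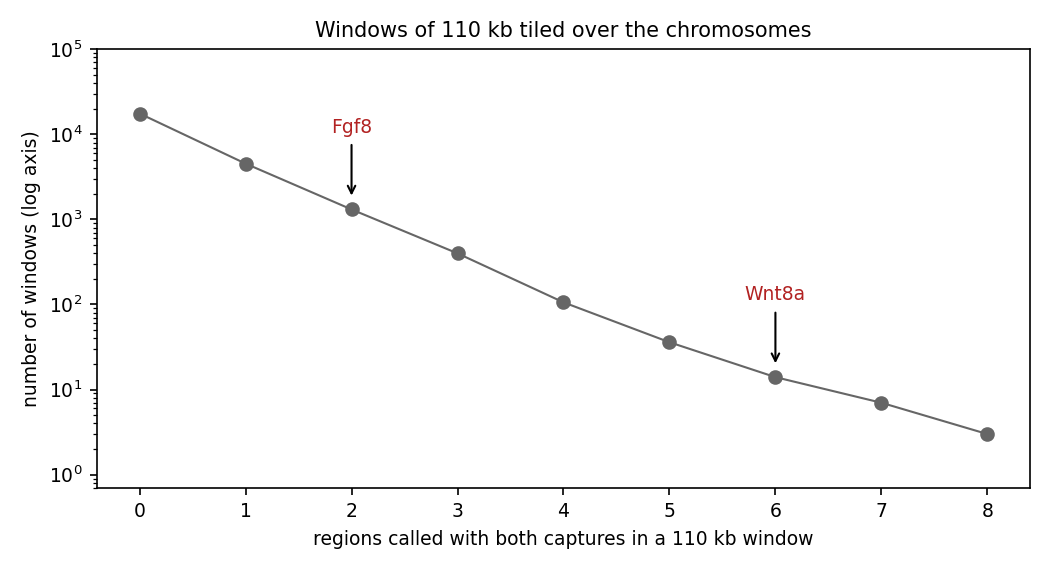
Number of 110 kb windows (vertical, log axis) against the number of regions called with both captures that they hold (horizontal), over 23964 windows tiled along the chromosomes, with arrows at the values of the Wnt8a and Fgf8 windows. The Wnt8a window holds 6, a number reached or passed by 24 windows, and the Fgf8 window holds 2.

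The flanks of equal length gave a local comparison. Beside the Wnt8a window the lower flank held no peak of any list. The upper flank held 2 anti-FLAG peaks of at most 27 tags, 1 streptavidin peak of 28 tags and 2 DMSO peaks of 6 tags. The nearest outside peaks lay 5.90 kb beyond the upper edge by anti-FLAG and 5.84 kb by streptavidin, at the same place in both, with p scores of 65.0 and 89.4. They would have been a seventh Wnt8a region of both captures in a slightly longer window. Beside the Fgf8 window the lower flank held 1 region of both captures, 63.2 kb below the edge, with 68 and 64 tags. Beside the Bmp4 window it held 1 as well, 97.2 kb below the edge, with 49 and 39 tags.

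Other genes lie next to the ligands. In the order of protein-coding genes on the GRCm38 assembly, Wnt3 lies between Wnt9b, another Wnt gene, and Nsf. Wnt8a lies between Fam13b and Nme5, Fgf8 between Fbxw4 and Npm3, and Bmp4 between Ddhd1 and Cdkn3. The peak files are in mm9, for which no annotation was used here, so peaks were not placed at promoters, exons or introns, and none was assigned to a ligand gene over its neighbours.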

How the data were processed

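β-Catenin ChIP-seq peaks of 3 libraries were used, and the 2 input libraries entered only through the authors' peak calls. Per the file headers, peaks were called with MACS on ELAND alignments, 1 ChIP library against 1 input, at a p-value cutoff of 1.00e-05. No version of MACS is named there, and the build is mm9 per the submitters' processing notes. The deposited tables give per peak a tag count, a score (10 times −log10 of the p-value), a fold ratio over local background and the FDR (false discovery rate) as a percent. Score and fold are the authors' values and were used only within a list.

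Peaks with their summit (start + summit − 1) in the 4 windows were taken, and peaks of the 3 lists that overlapped or touched were merged into regions. Counts of tags carry 95% exact Poisson intervals, shares and ratios exact binomial (Clopper-Pearson) ones, all for counting error only. Classes of equal size were cut by rank of the p score. Every region of 2 or more lists and the leading peaks of each window are named. Members, windows and lists were chosen with earlier results of these data known. No test across samples was possible with 1 library per group. A planned list of other gastrulation ligands needs an mm9 annotation and was not run, and no sequence of a peak is given for the same reason. The overlap and ratio code was tested on simulated lists. Tools were scipy 1.17.1, numpy 2.4.6, pandas 2.3.3, matplotlib 3.10.9 and Python 3.11.15.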

Additional observations from a re-analysis of the deposited data

How the results depend on the processing

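Stricter limits leave fewer peaks by construction. At a false discovery rate of at most 1%, the Wnt8a window kept 3 of 7 anti-FLAG, 4 of 7 streptavidin and 0 of 1 DMSO peaks, Wnt3 kept 1 of 2 streptavidin peaks and Fgf8 kept 0 of 3 DMSO peaks. At a p score of at least 100, Wnt8a kept 2 anti-FLAG, 3 streptavidin and 0 DMSO peaks, Fgf8 kept 1 anti-FLAG, 2 streptavidin and 0 DMSO peaks, and Wnt3 and Bmp4 kept 0. At a fold enrichment of at least 10, Wnt8a kept 1 anti-FLAG and 2 streptavidin peaks and Fgf8 kept 1 anti-FLAG and 1 streptavidin peak. Wnt3 and Bmp4 kept 0, and all 4 DMSO peaks stayed. The median fold enrichment was 25.8 in the DMSO list, against 8.13 and 8.56 in the anti-FLAG and streptavidin lists. This limit therefore does not compare DMSO peaks with the others, and 0 of the 4 DMSO members lay above their list median. With windows widened by 50 kb on each side, Wnt3 went from 1 to 2 anti-FLAG and from 0 to 1 DMSO peaks. Wnt8a went from 7 to 9 anti-FLAG, from 7 to 8 streptavidin and from 1 to 2 DMSO peaks, and Bmp4 from 0 to 1 DMSO peak. Regions of both captures numbered 8, and 8 with 50% reciprocal overlap, 7 with summits within 200 bp and 3 when both p scores had to reach 100. Those with a DMSO peak numbered 2, and 1 when DMSO peaks needed at least 10 tags, which leaves region 5 of Wnt8a. Members in the top 10% of the DMSO list numbered 0 by p score and 1 by tags. The ratio of region 6 of Wnt8a went from 1.24 (0.673 to 2.28) to 0.646 per kb of each capture's own peak, an alternative added after seeing the data. The other 23 alternative ratios stayed within the exact binomial interval of the main value, and so did the 11 shares of shifted windows, such as 0.0835% against 0.100% (0.0642 to 0.149%) for regions of both captures at Wnt8a. No paired analysis was possible because there was 1 library a group. Windows without a DMSO call are limited by the unknown depth of that library.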

Other observations

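The nearest anti-FLAG peak above the Wnt3 window, from 103781804 to 103782600 on chromosome 11, had 58 tags, a fold enrichment of 30.4 and a p score of 335, higher in score than any member at Wnt3. It overlapped a DMSO peak of 6 tags, from 103782100 to 103782172, but no CHIR99021 streptavidin peak, of which the nearest above the window had its summit 176 kb beyond the edge. It falls in class 2 of the 10 score classes of the anti-FLAG list, where 96.3% (95.2 to 97.1%) of peaks had a streptavidin partner. This peak was singled out after its values were seen.

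In the anti-FLAG list the authors' false discovery rate did not follow the p score at the top-scoring members. Among the other members it rose nearly in step, from 0.29% to 1.36%, as the p score fell from 116 to 59.3. Region 5 of Wnt8a and region 4 of Fgf8, with p scores of 755 and 649, were listed at 0.88% and 0.84%, while region 2 of Wnt8a, with a p score of 116, was listed at 0.29%. In the streptavidin list the same 3 regions were listed at 0, 0 and 0.03%.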
